A study of Mus musculus with 10 samples.

Results

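The genes described here encode parts of the thin filament of the cardiac sarcomere: cardiac alpha-actin (Actc1), troponin T (Tnnt2), the troponin I isoforms Tnni1 and Tnni3, troponin C (Tnnc1), alpha-tropomyosin (Tpm1), nebulette (Nebl) and tropomodulin (Tmod1). They were chosen by name for their place in this structure, 8 genes among the 36191 gene IDs of the count table, and 7 of them could be matched to a row. This choice was made with earlier results of these data known. Counts of these genes that passed, set beside the share of all genes, are therefore a description only. Tnnc1 could not be matched by its annotated Ensembl ID and is not analysed here. All 7 matched genes passed the filter on low counts. The groups were Rybp null and wild type mouse embryonic stem (ES) cells at day 0 and the cultures differentiated from each toward the heart lineage at days 8 and 14. All were of the labelled strain background 129x1 x 129S1 and grew in serum medium with leukaemia inhibitory factor as ES cells, and differentiation went through hanging-drop embryoid bodies. The 10 libraries, made from RNA of whole dishes, were a single one for each genotype of ES cells and pairs for all 4 differentiated groups. The sources used here do not say how many clones each genotype stands for, nor whether the 2 libraries of a group came from separate differentiations. The p-values therefore measure the spread between these libraries, pooled over all groups, and that spread may be technical.

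In heart muscle, actin polymers carry tropomyosin and the troponin complex along their length. Calcium binding to troponin C relieves the block that troponin I and tropomyosin place on myosin, troponin T ties the complex to tropomyosin, tropomodulin caps the slow-growing end of the filament, and nebulette joins thin filaments to the Z-disc. Tnni1 is the isoform of embryonic heart and slow skeletal muscle, and Tnni3 replaces it in the maturing heart. Tpm1, Nebl and Tmod1 are less restricted: Tpm1 makes isoforms used in smooth muscle and in non-muscle cells, Nebl also encodes a short focal adhesion isoform, and Tmod1 is a part of the red cell membrane skeleton. Counts were made per gene, so isoforms of a gene are summed.

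The sequences before the annotated starts of 3 of these genes are shown to put the promoters of 2 genes lower at day 8 in null cultures than in wild type, Actc1 and Tnnt2, beside that of Tpm1, which did not pass the test. Each run gives the 250 bases before the start in RefSeq on GRCm38.p6, 5′ to 3′ on the strand of the gene, with the start at position 0 and bases before it numbered down from −1; the counts themselves were made on another build. Capitals mark matches to the CArG box, the site of serum response factor, and to the MCAT element CATTCC, the site of TEAD factors, on either strand.
Actc1, chr2:114052876-114053125, minus strand: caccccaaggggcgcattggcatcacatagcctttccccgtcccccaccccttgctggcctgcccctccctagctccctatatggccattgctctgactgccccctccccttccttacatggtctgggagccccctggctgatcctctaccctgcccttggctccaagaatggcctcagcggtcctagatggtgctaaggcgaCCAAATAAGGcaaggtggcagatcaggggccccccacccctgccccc
Tnnt2, chr1:135836084-135836333, plus strand, the first of 2 listed starts: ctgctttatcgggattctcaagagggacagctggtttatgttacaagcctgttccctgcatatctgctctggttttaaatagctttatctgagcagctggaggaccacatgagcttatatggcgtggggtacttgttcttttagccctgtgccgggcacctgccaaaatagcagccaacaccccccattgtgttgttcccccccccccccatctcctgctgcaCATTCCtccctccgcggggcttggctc
Tpm1, chr9:67049214-67049463, minus strand: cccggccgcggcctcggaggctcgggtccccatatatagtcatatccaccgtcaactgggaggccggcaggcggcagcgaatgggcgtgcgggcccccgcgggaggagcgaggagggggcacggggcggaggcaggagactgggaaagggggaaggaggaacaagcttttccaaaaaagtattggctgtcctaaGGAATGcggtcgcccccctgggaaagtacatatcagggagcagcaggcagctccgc

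The Actc1 sequence held a CArG box at −47 to −38, and the Tnnt2 and Tpm1 sequences held an MCAT element at −27 to −22 and −56 to −51. All 8 genes had a RefSeq promoter. A CArG box was found for 2 of them, Actc1 and 1 of the 4 listed starts of Nebl, and in 1.47% of all 32851 promoters of this length. MCAT was found for 5 genes, in the windows of Tnnt2, Tnnc1, Tpm1, Nebl and Tmod1, and in 12.6% of all promoters. The E-box CANNTG was found for 6 genes and in 66.2% of all promoters. No window of the 8 genes held the letters of a MEF2 site (2.92% of all promoters), GATAAG (6.55%) or TATAAA (12.4%). The gene counts take a match at any listed start, and Tnnt2, Tnni1 and Nebl list several, while the percentages are per single promoter. These are unlike measures. A match describes letters and not binding.

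Levels are given in CPM, the usual read count scaled to library size, here after trimmed-mean (TMM) normalization, and differences as log2 fold changes with standard errors implied by the test. Each adjusted p comes from edgeR's quasi-likelihood test with Benjamini-Hochberg adjustment over the 15819 genes tested, and a gene passed at an adjusted p under 0.05. Library totals ran from 3028153 to 6890792 counts. Rybp, the deleted gene, held 1 to 4 counts in each null library, with 0.288 to 1.13 CPM in null libraries and 19.5 to 76.2 CPM in wild type libraries. Markers of cardiomyocytes other than thin filament genes summed to 49.6 to 55.5 CPM in null and 1367 to 1796 CPM in wild type libraries at day 8, and to 77.1 to 81.9 CPM in null and 525 to 619 CPM in wild type libraries at day 14. Null ES cells, in their single library, held 155 CPM of these markers. Wild type ES cells held 364 CPM. Both sums exceeded those of every null culture, so the sum is not specific to cardiomyocytes. Ttn had the highest count of the list in any library, 3940, and Myh6 reached 636. Tested singly, 8 of 10 markers were lower in null cultures at day 8, and 5 of 10 at day 14. Of these 12 markers the natriuretic peptide genes Nppa and Nppb had at most 3 counts in any library, in wild type cultures too. In bulk RNA, fewer cardiomyocytes and less RNA per cardiomyocyte cannot be told apart.

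**Figure D1:**
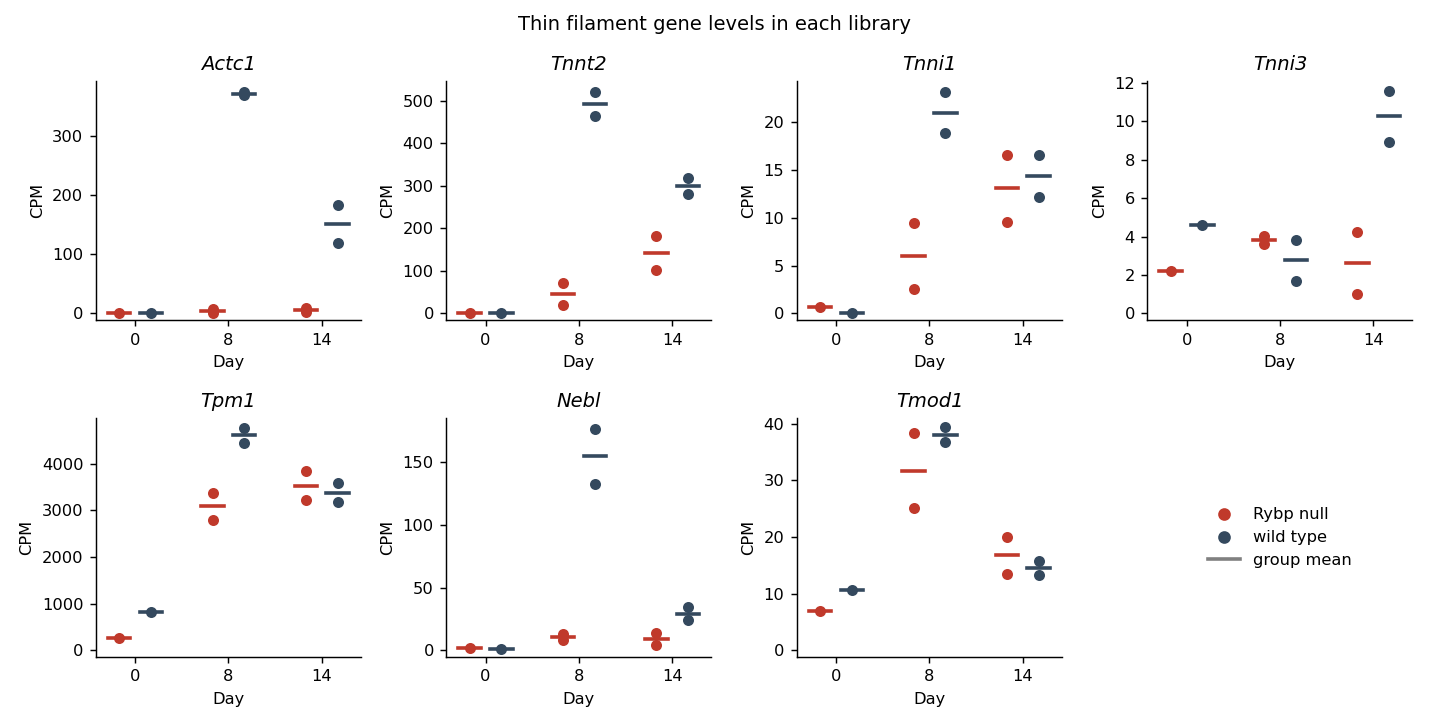
Level of each thin filament gene (CPM, linear axis) by day of differentiation, with a point for each library and a line at the group mean, Rybp null in red and wild type in dark blue. At day 8 the null points of Actc1, Tnnt2 and Nebl lie far below the wild type points, while those of Tmod1 and Tnni3 overlap them.

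Cardiac actin, troponin T and nebulette transcripts were much lower in Rybp null than in wild type cultures at day 8. Alpha-tropomyosin, tropomodulin and both troponin I genes did not pass. In the null to wild type comparison at day 8, 3 of the 7 genes were lower and 0 higher, with 4 short of the threshold, against 1.26% of all tested genes called in either direction, 0.759% lower and 0.506% higher. Their median log2 fold change was −1.77, against 0.01 over all genes tested. Without the filter the count was again 3, but the genes were Tnni1, Tpm1 and Nebl.

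Actc1, the main actin of the cardiac thin filament, had 7.50 and 0.863 CPM in null cultures, against 369.9 and 375 CPM in wild type cultures at day 8. The wild type libraries were close to each other, and the 2 null libraries, with 31 and 3 counts, lay far below them and differed from each other by more than the wild type pair. The mean in null cultures was 1.12% of that in wild type (log2 fold change −6.40, SE 0.72, adjusted p = 0.00743). Without wild type replicate 1 the log2 fold change was −6.41 and the gene no longer passed (adjusted p = 0.0806), nor did it without the low-count filter (adjusted p = 0.0802). The size also depended on the null libraries, at −8.71 without null replicate 1 and −5.63 without null replicate 2.

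Nebl had 7.98 and 12.7 CPM in null cultures, against 177 and 133 CPM in wild type cultures at day 8. The genotypes did not overlap, and the null mean was 6.67% of the wild type mean. On the log2 scale Nebl was at −3.91 (SE 0.43, adjusted p = 0.000921). Nebl passed when any 1 of the 8 libraries of days 8 and 14 was left out and under every other setting tried, and was alone among the thin filament genes in passing without wild type day 8 replicate 1.

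Tnnt2, a defining gene of cardiomyocytes, was present in null cultures at 72.1 and 20.4 CPM, against 520.3 and 464 CPM in wild type cultures. The 2 null libraries, with 298 and 71 counts, were both below the wild type range, and replicate 1 was again the higher, as it was for Actc1. The null mean was 9.39% of the wild type mean (log2 fold change −3.40, SE 0.52, adjusted p = 0.0245). Tnnt2 no longer passed without wild type replicate 1 (adjusted p = 0.18), without wild type replicate 2 (adjusted p = 0.11) or without the low-count filter (adjusted p = 0.132). Without null replicate 1 its log2 fold change was −4.60.

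The troponin I genes were low in both genotypes. Tnni1 had 9.43 and 2.59 CPM in null cultures, against 18.8 and 23.1 CPM in wild type cultures at day 8. Both null values were lower, but they spread widely and the difference did not pass (log2 fold change −1.77, SE 0.50, adjusted p = 0.123). Without null replicate 1 it was −3.01 and passed (adjusted p = 0.0218). Tnni3 had 3.63 and 4.03 CPM in null cultures, against 3.83 and 1.69 CPM in wild type cultures. These are 15 and 14 counts in null against 12 and 6 counts in wild type libraries, the ranges overlap, and the difference did not pass (0.48, SE 0.67, adjusted p = 0.82). Tnni3 overlaps Dnaaf3, which had 18 counts over all libraries against 166 for Tnni3.

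Tpm1 was the most abundant of the 7 genes per length in every group. It had 3381 and 2784 CPM in null cultures, against 4761 and 4453 CPM in wild type cultures at day 8. The null values were both lower, and the null mean was 66.9% of the wild type mean. The difference did not pass (log2 fold change −0.58, SE 0.16, adjusted p = 0.109), while it passed in DESeq2 (adjusted p = 0.0405), without the low-count filter (adjusted p = 0.0155) and without null replicate 1 (adjusted p = 0.0396). Tmod1 had 38.4 and 25.0 CPM in null cultures, against 36.7 and 39.5 CPM in wild type cultures, so that the genotypes overlapped (−0.26, SE 0.30, adjusted p = 0.777). Tmod1 shares part of its locus with Tstd2 on the opposite strand, which had 1656 counts over all libraries against 807 for Tmod1. Without a stated strand setting reads of both cannot be told apart, which holds for every Tmod1 result here.

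Without null day 8 replicate 1, the library in which Actc1, Tnnt2 and Tnni1 were higher of the pair, 5 of the 7 genes were lower at day 8, and without wild type day 8 replicate 1 only Nebl was. Summed markers of other cell types differed between the null libraries as well, and for some lists the genotypes did not overlap. Fibroblast markers summed to 4287 to 7807 CPM in null and 7712 to 9188 CPM in wild type cultures, which overlap. Erythroid markers summed to 406 to 684 CPM in null and 368 to 387 CPM in wild type cultures. Smooth muscle markers summed to 408 to 770.4 CPM in null and 1010.3 to 1133 CPM in wild type cultures. Most of that sum was Acta2, at 316 to 644 CPM in null and 861 to 942 CPM in wild type cultures. At day 14 the smooth muscle sums were 516 to 720 CPM in null and 678 to 681 CPM in wild type cultures, which overlap. In edgeR 0 of 6 fibroblast, 0 of 7 erythroid and 0 of 8 smooth muscle markers passed at day 8. At an unadjusted p under 0.05 there were 1, 3 and 3, where 13.4% of all genes stood, and DESeq2 called 0, 1 and 1. Pluripotency markers summed to 53.0 to 108 CPM in null and 18.8 to 30.2 CPM in wild type cultures at day 8, with 2 of 5 higher. Endothelial markers summed to 253 to 308 CPM in null and 405 to 428 CPM in wild type cultures at day 8, when 0 of 5 passed in edgeR (2 at an unadjusted p under 0.05, 1 in DESeq2). At day 14, when 2 of the 5 were lower, they summed to 95.4 to 134 CPM in null and 142 to 187 CPM in wild type cultures. At an unadjusted p under 0.05, 4 of the 5 were then lower and 1, Cdh5, was higher. Cdh5 stood at 38.1 to 55.7 CPM in the null pair, above the wild type pair at 6.64 to 19.5 CPM. Its log2 fold change of 1.86 did not pass (adjusted p = 0.0675). At day 8 the null means of Cdh5 and Pecam1 were 143% and 119% of wild type, and neither passed. The part of these marker lists in the thin filament results was not tested. The skeletal muscle regulators Myod1 and Myf5 had 0 counts in all 10 libraries, and Myog at most 3. Of the other genes of this list of 8, Ckm had 0 counts, and Tnnt3, Myh3, Actn3 and Mb reached 55, 42, 21 and 13 counts in their highest library; at day 8 the list summed to 10.6 to 14.7 CPM in null and 13.7 to 16.6 CPM in wild type libraries.

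**Figure D2:**
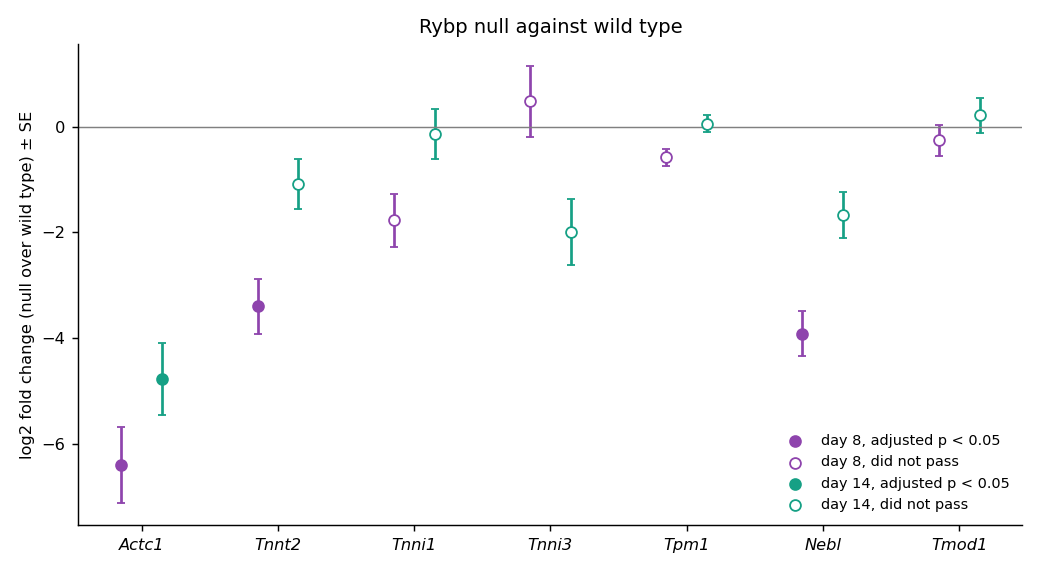
Log2 fold change of each thin filament gene in Rybp null over wild type cultures at day 8 (purple) and day 14 (green), with bars of 1 standard error and filled points for an adjusted p under 0.05. Actc1 was lower at both days, Tnnt2 and Nebl passed at day 8, and the other points are open.

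At day 14 cardiac actin was again far lower in null cultures, and no other thin filament gene passed. Of the 7 genes 1, Actc1, was lower and 0 were higher, against 0.613% of all tested genes called in either direction, 0.354% lower and 0.259% higher; the median log2 fold change of the 7 was −1.08, against −0.01 over all genes. DESeq2 called 2 genes lower, Actc1 and Nebl, and without the low-count filter the 2 called were Nebl and Tnni3.

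Actc1 had 9.29 and 1.98 CPM in null cultures, against 184 and 119 CPM in wild type cultures at day 14. The null libraries held 33 and 8 counts and lay well below both wild type libraries. The null mean was 3.72% of the wild type mean (log2 fold change −4.78, SE 0.68, adjusted p = 0.029). The gene no longer passed without null day 14 replicate 2 (−4.02, adjusted p = 0.0522), without wild type day 8 replicate 1 (adjusted p = 0.0946), without wild type day 8 replicate 2 (adjusted p = 0.0883) or without the low-count filter (adjusted p = 0.154), and it was at −6.23 without null day 14 replicate 1.

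Tnnt2 had 102 and 181 CPM in null cultures, against 281 and 318 CPM in wild type cultures at day 14. The null values were both lower but the pair spread widely, and the difference did not pass (log2 fold change −1.08, SE 0.48, adjusted p = 0.397); it passed without null day 8 replicate 1 (adjusted p = 0.0368) and without null day 8 replicate 2 (adjusted p = 0.0402). Here null replicate 2 held more Tnnt2 and less Actc1 than null replicate 1, so that the pair was ordered differently for the 2 genes. Tnni1 had 9.57 and 16.6 CPM in null cultures, against 12.2 and 16.6 CPM in wild type cultures, which overlap (log2 fold change −0.14, SE 0.48, adjusted p = 0.965).

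Tnni3, the isoform of the maturing heart, had 4.22 and 0.989 CPM in null cultures, against 11.6 and 8.93 CPM in wild type cultures at day 14. The genotypes did not overlap, at 15 and 4 counts in null against 38 and 35 counts in wild type libraries, and the difference did not pass (log2 fold change −1.99, SE 0.63, adjusted p = 0.185). Nebl had 14.1 and 4.45 CPM in null cultures, against 34.4 and 24.0 CPM in wild type cultures. Both null values were lower, without passing (−1.67, SE 0.43, adjusted p = 0.115), and without null day 14 replicate 1 the gene passed at −2.70 (adjusted p = 0.03). Tpm1, at 3210.2 and 3833 CPM in null and 3584 and 3173 CPM in wild type cultures, overlapped between the genotypes (0.06, SE 0.16, adjusted p = 0.946). Tmod1 did too, with 13.5 and 20.02 CPM in null and 15.8 and 13.3 CPM in wild type cultures (0.21, SE 0.32, adjusted p = 0.871).

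Tnnt2 and Tnni1 lie on chromosome 1. The median log2 fold change of null over wild type for genes of this chromosome exceeded that of the other autosomes by 0.42 at day 8 and by 0.45 at day 14. For the chromosomes of the other genes, 2, 4, 7 and 9, this difference lay between −0.064 and −0.00066 at day 8 and between −0.088 and −0.037 at day 14. When each library was also scaled by the level of the gene's own chromosome, the same 3 genes passed at day 8 and Actc1 alone at day 14.

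Between days 8 and 14 nebulette and tropomodulin fell in wild type cultures, and no gene passed a test of the difference between genotypes in this change. In null cultures 0 of the 7 genes passed from day 8 to day 14 (7.69% of all tested genes were called, 4.29% higher and 3.41% lower), with 2 at an unadjusted p under 0.05, where 21.6% of all genes stood, and 0 in DESeq2. Tmod1 was lower in both null libraries of day 14 than in both of day 8 (log2 fold change −0.92, SE 0.31, adjusted p = 0.0952). Its difference between genotypes in this change was 0.47 (SE 0.44, adjusted p = 0.955), so a fall of Tmod1 was not particular to wild type cultures. Without null day 8 replicate 1, Tnnt2 (log2 fold change 2.79, adjusted p = 0.00112) and Tnni1 (2.33, adjusted p = 0.0297) passed, and without null day 8 replicate 2 Tmod1 did (−1.19, adjusted p = 0.0453). In wild type cultures 2 fell, Nebl (log2 fold change −2.41, SE 0.39, adjusted p = 0.00546) and Tmod1 (−1.39, SE 0.32, adjusted p = 0.0278), and 0 rose, against 4.04% of all tested genes called, 1.57% lower and 2.47% higher. Tmod1 in wild type cultures did not pass when any 1 of the 4 wild type libraries was left out (adjusted p from 0.12 to 0.249), and Nebl did not without wild type day 8 replicate 1 (adjusted p = 0.0635) or day 14 replicate 2 (adjusted p = 0.0939). In a fit on the wild type libraries alone 6 genes passed, every one of the 7 except Tnni1, as did 14.4% of all genes tested there. Of these, Tnni3 was higher at day 14 (log2 fold change 1.89). Actc1 (−1.31), Tnnt2 (−0.73) and Tpm1 (−0.46) were lower, as were Nebl and Tmod1.

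Tnnt2 was higher in both null libraries of day 14 than in both of day 8 (log2 fold change 1.60, SE 0.50, adjusted p = 0.102), and lower in both wild type libraries of day 14 (−0.72, SE 0.47, adjusted p = 0.519). The interaction, the change in null cultures minus that in wild type cultures, was 2.32 (SE 0.68, adjusted p = 0.718). It passed at 3.51 without null day 8 replicate 1 (adjusted p = 0.0271). For Nebl the interaction was 2.25 (SE 0.60, adjusted p = 0.641): the null mean was 9.26 ± 6.81 CPM at day 14 and 10.3 ± 3.31 CPM at day 8, and the wild type mean was 29.2 ± 7.34 CPM at day 14 and 155 ± 31.3 CPM at day 8 (SD, n = 2 each). It passed without the low-count filter (adjusted p = 0.000324). For Tnni3 it ran the other way, at −2.47 (SE 0.92, adjusted p = 0.728), with 2.61 ± 2.29 CPM at day 14 and 3.83 ± 0.284 CPM at day 8 in null cultures, and 10.2 ± 1.86 CPM at day 14 and 2.76 ± 1.51 CPM at day 8 in wild type cultures. For Actc1 it was 1.62 (SE 1.01, adjusted p = 0.909). In all, 0 of 7 interactions passed and 0 passed over all 15819 genes (0% called) in edgeR. At an unadjusted p under 0.05 there were 5 of the 7 and 962 (6.08%) of all genes, and DESeq2 called 0 of the 7 and 8 of all genes.

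**Figure D3:**
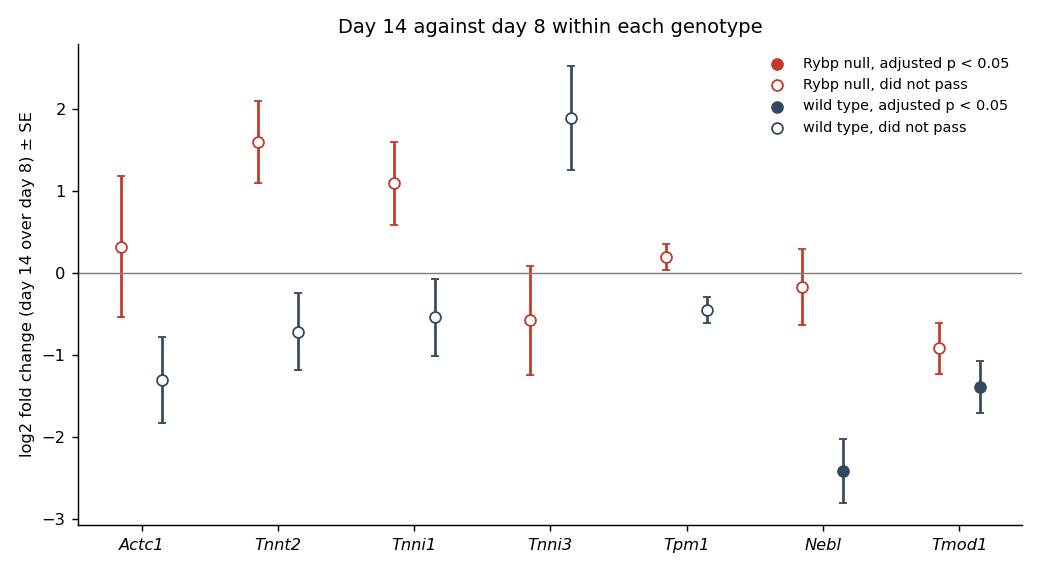
Log2 fold change of each thin filament gene at day 14 over day 8 within Rybp null (red) and wild type (dark blue) cultures, with bars of 1 standard error and filled points for an adjusted p under 0.05. The filled points are those of Nebl and Tmod1 in wild type cultures, and the null point of Tnnt2 lies above 0 at 1.60 while the wild type point lies below it at −0.72.

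Most thin filament genes were higher in day 8 cultures than in ES cells of the same genotype. At day 8 against day 0, 5 of the 7 genes were higher in null cultures (37.7% of all tested genes called, 19% higher and 18.6% lower) and 6 of 7 in wild type cultures (40.5% called, 21.2% higher and 19.3% lower), with 0 lower in either. These comparisons rest on a single day 0 library, taken to have the same variability as the replicated groups.

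Tnnt2 had 1.02 CPM, 6 counts, in null ES cells and rose to a mean of 46.2 CPM at day 8 of null differentiation (5.48 on the log2 scale, SE 1.02, adjusted p = 0.00393). That rise was 4.29 without null day 8 replicate 1 and 6.10 without replicate 2, and passed in both. In wild type ES cells it had 2 counts, and its pooled CPM at day 8 was 744 times that level (95% counting interval 206 to 6143, adjusted p = 0.000448). Actc1 had 0 counts in both ES cell libraries. Against a floor of 3 counts over the day 0 library it was at least 8.80-fold higher in null cultures at day 8, which did not pass (adjusted p = 0.0682), and at least 376-fold higher in wild type cultures (adjusted p = 0.000716). Replicate 1 held 31 of the 34 null counts behind that bound and replicate 2 only 3, which is at the floor. In null cultures the Actc1 call depended on the setting: it passed in DESeq2 (adjusted p = 0.0209) and without null day 8 replicate 2 (adjusted p = 0.0201), and did not without replicate 1 (adjusted p = 0.354).

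Tnni1 rose by 3.12 (SE 0.88, adjusted p = 0.0146) on the log2 scale in null cultures, a call that was lost without null day 8 replicate 1 (adjusted p = 0.117), and was at least 21.3-fold higher in wild type cultures, against the floor (adjusted p = 0.000575). Nebl rose by 2.44 (SE 0.68, adjusted p = 0.0149) in null cultures, lost without null day 8 replicate 2 (adjusted p = 0.0664), and its wild type ratio was 155 (52.9 to 753, adjusted p = 3.26e-05). Tpm1 rose in null cultures by 3.54 (SE 0.24, adjusted p = 5.87e-07) and in wild type cultures by 2.49 (SE 0.22, adjusted p = 4.55e-06). Tmod1 rose in null cultures by 2.19 (SE 0.42, adjusted p = 0.00148) and in wild type cultures by 1.85 (SE 0.43, adjusted p = 0.00433). Tnni3 did not pass in null (0.79, SE 0.79, adjusted p = 0.463) or wild type cultures (−0.75, SE 0.81, adjusted p = 0.48).

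Between the ES cell libraries themselves nothing was tested, since each genotype had 1 library. Tpm1 stood at 264 CPM in null ES cells against 821 CPM in wild type ES cells, a ratio of 0.322 (95% counting interval 0.302 to 0.343). Among the 5 genes with counts in both libraries, it was the only one whose counting interval, which covers counting error and no replicate spread, lay wholly on 1 side of equal levels. It also had the most counts of these genes, 1561 in null and 2490 in wild type ES cells. Paralogs with an interval below equal levels included Actb (0.601, 0.541 to 0.667), Tpm2 (0.463, 0.374 to 0.574) and Acta2 (0.144, 0.0733 to 0.264). That of Tmod2 lay above (2.34, 1.45 to 3.96). Tmod1 stood at 6.94 CPM in null ES cells and 10.6 CPM in wild type ES cells (ratio 0.657, 0.404 to 1.08), and Tnni3 at 2.20 CPM in null ES cells and 4.62 CPM in wild type ES cells (0.476, 0.206 to 1.09). The interval of Tnnt2 was wide (1.54, 0.275 to 15.6). Nebl had 11 counts in the null and 3 in the wild type library (1.88, 0.497 to 10.5), and Tnni1 had 4 counts in the null and 0 in the wild type library.

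Scaled to exon length, in CPM per kilobase of merged exons, the order of the 7 genes differed between genotypes. At day 8 in null cultures Tpm1, at 475 ± 65.0 CPM per kb, was followed by Tmod1 at 8.04 ± 2.40 and Tnnt2 at 5.97 ± 4.71, which lie within their spread of each other, and Actc1 stood at 2.58 ± 2.90. In wild type cultures Tpm1 had 710.4 ± 33.5 CPM per kb, Actc1 230.1 ± 2.16 and Tnnt2 63.5 ± 5.10, each apart from its neighbour by more than the spread, ahead of Nebl at 10.2 ± 2.05 and Tmod1 at 9.65 ± 0.488, which did not differ beyond theirs (SD, n = 2 each). At day 14 the null order was Tpm1, Tnnt2 and Tmod1, with Tnnt2 at 18.3 ± 7.18 CPM per kb and Actc1 at 3.48 ± 3.20, and the wild type order was Tpm1, Actc1 and Tnnt2, with Actc1 at 93.6 ± 28.2 and Tnnt2 at 38.6 ± 3.35. Merged exons count the exons of every isoform, so the level of a gene with many isoforms, such as Nebl, Tpm1 or Tnnt2, is understated per length.

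Within each family the isoform makeup of the cultures can be read on the same scale. Among the actins of muscle (Actc1, the skeletal Acta1 and the smooth muscle Acta2 and Actg2), Actc1 made up 0.92% ± 0.789 of the summed level in null cultures and 34.1% ± 2.30 in wild type cultures at day 8, and 2.49% ± 2.22 in null and 32.3% ± 3.25 in wild type cultures at day 14. Acta2 made up 95.6% ± 2.84 in null and 60.7% ± 0.321 in wild type cultures at day 8. Coding sequences of these actins are very similar, so reads may be shared and these shares are uncertain. Among the troponin T genes Tnnt2 took 39.9% ± 24.3 in null and 86.0% ± 1.97 in wild type cultures at day 8, with the skeletal gene Tnnt3 taking most of the rest, and 81.7% ± 9.31 in null and 77.5% ± 3.49 in wild type cultures at day 14. The null share of Tnnt2 at day 8 was 57.1% in replicate 1 and 22.7% in replicate 2. It depends on the exon lengths used, 7752 bases for Tnnt2 and 1583 for Tnnt3. In CPM with no length scaling, a setting chosen after seeing the data, Tnnt2 made up 72.2% ± 19.7 of troponin T in null and 96.6% ± 0.497 in wild type cultures at day 8, so that which of Tnnt2 and Tnnt3 was the larger in null cultures turned with the scaling. Tnni3 took 20.04% ± 18.3 of the troponin I level in null and 33.4% ± 0.975 in wild type cultures at day 14, against 49.4% ± 20.4 in null and 12.1% ± 6.52 in wild type cultures at day 8 (SD, n = 2 each). Tpm1 was the main tropomyosin at days 8 and 14, with 51.5% ± 0.349 in null and 62.4% ± 0.83 in wild type cultures at day 8, while in null ES cells Tpm3 was, with 56.0% against 21.3% for Tpm1. These shares were not tested.

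**Figure D4:**
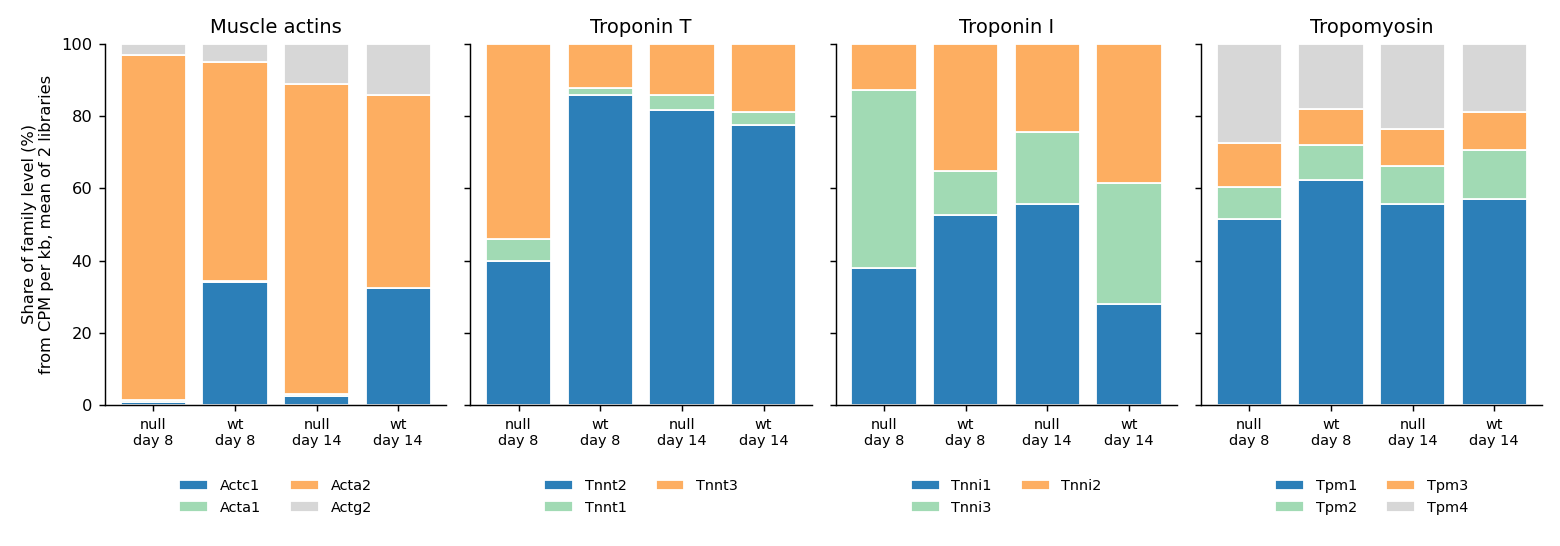
Share of each gene in the summed level of its family (percent, from CPM per kb of merged exons, mean of 2 libraries), with Rybp null left of wild type at days 8 and 14. Actc1 makes up 0.92% of the muscle actins in null and 34.1% in wild type cultures at day 8, and Tnnt2 39.9% of troponin T in null and 86.0% in wild type cultures, or 72.2% in null and 96.6% in wild type cultures in CPM with no length scaling.

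Of 40 listed genes, covering actin, troponin and tropomyosin paralogs, leiomodins, cofilins, capping proteins, formins and regulators such as Srf, 33 were tested and 0 passed in either direction at day 8 or at day 14; at an unadjusted p under 0.05 there were 10 at day 8 (1 higher, 9 lower) and 5 at day 14 (2 higher, 3 lower), against 13.4% of all genes at day 8 and 12.9% at day 14, and DESeq2 called 1 and 0. Their median log2 fold change was −0.37 at day 8 and −0.03 at day 14. Among the muscle paralogs, the fast skeletal troponin I gene Tnni2 had 0.967 and 0.576 CPM in null and 6.07 and 5.64 CPM in wild type cultures at day 8 (−2.85, adjusted p = 0.0685), and Actg2 had 22.0 and 3.74 CPM in null and 69.3 and 36.9 CPM in wild type cultures (−2.01, adjusted p = 0.176). Acta2, the smooth muscle actin, was at 644 and 316 CPM in null and 942 and 861 CPM in wild type cultures (−0.91, adjusted p = 0.138). Tnnt3 was at 5.91 and 2.97 CPM in null and 16.4 and 13.3 CPM in wild type cultures at day 14 (−1.75, adjusted p = 0.0939). None of these 4 genes passed, but Acta2 passed in DESeq2 (adjusted p = 0.0355), and all 4 did without the low-count filter. Without null day 8 replicate 1 the day 8 log2 fold changes of Acta2 and Actg2 were −1.52 and −3.82. Tpm4 ran the other way, at 0.32 at day 8 (adjusted p = 0.459) and 0.41 at day 14 (adjusted p = 0.332). Of 15 paralogs tested in edgeR, 4 were lower and 0 higher at an unadjusted p under 0.05 at day 8. At day 14 there were 3 lower and 1 higher.

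Likeness of pattern was measured by Pearson's correlation over the 10 libraries between a gene's log2 CPM and the mean of the 7 scaled thin filament profiles. Among the genes closest to that mean, of 10791 compared, were Pbx3 (r = 0.979), Ywhab (0.977), Myom1 (0.977) and Nrbp1 (0.976). The thin filament genes' own correlations with it ran from 0.266 for Tnni3 to 0.956 for Tnnt2. The libraries share their groups, and the day 0 libraries stand apart from the others, so these values also hold the gap between ES cells and cultures and are a description only.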

How the data were processed

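The members and gene lists were chosen with earlier results of these data known. The authors deposited read counts per Ensembl gene, not normalized; the submitters' processing notes name TopHat, HTSeq, DESeq and mm9, but the sources used here give neither the annotation nor the strand setting of counting. Per the labels' protocols, NuGEN kits (Ovation, then Encore) turned total RNA into libraries. Of 36191 IDs, 30946 matched a symbol; chromosomes and merged exon lengths came from GENCODE vM21 on GRCm38, another build than that of the counts.

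Genes were kept by filterByExpr (minimum count 10) and TMM-scaled, and a robust quasi-likelihood model with 1 coefficient for each of 6 genotype-by-day groups was fitted to all 10 libraries in edgeR 4.0.16 (R 4.3.3), with 4 residual degrees of freedom. Tests were two-sided. Standard errors restate the test: the size of the log2 fold change divided by √F. On simulated day 8 data over 15819 genes, 100 of 100 genes changed 3 on the log2 scale and 100 of 100 changed 2 were recovered, with 9 false calls among the unchanged genes. Every simulated gene had the same spread (biological coefficient of variation 0.214), and changed genes were drawn only from those of higher level. Real genes differ in spread and several named here are low, so this recovery does not carry over to them. Floors are 3 counts over a group's libraries; 95% intervals are exact (Poisson or conditional binomial) and cover counting error only. Members, Rybp and muscle paralogs are named whatever their p, other listed genes only if they passed, and the 5 genes closest in pattern by correlation among genes of at least 5 mean CPM (log2 with a prior count of 2), of which 1 is not reported here. Alternatives were DESeq2 1.42.0 on the same counts, RLE scaling, no filter, no robust estimation, fewer groups in the fit, a replicate block, a chromosome offset and leaving out each library. Replicate pairs differed by more than counting noise. Chi-square per degree of freedom was 14.7 at day 8 and 9.12 at day 14 in null pairs. In wild type pairs it was 3.25 at day 8 and 4.39 at day 14. The spread of a gene was shared by all groups, so tests within wild type cultures also carry the spread of the null pairs, and the reverse.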

Additional observations from a re-analysis of the deposited data

How the results depend on the processing

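Counts of thin filament genes that passed kept within 1.5 times the reported count in 40 of 45 settings that leave no library out. The others were 2 genes at day 14 both in DESeq2 and without the low-count filter, 1 for the interaction without the filter (Nebl), 6 for wild type day 14 against day 8 in a fit on those groups alone, and 1 for null day 14 against day 8 without robust estimation (Tnnt2). Leaving out a library in turn gave 1 to 5 genes at day 8, 0 to 2 at day 14, 0 to 1 for the interaction, 0 to 2 for wild type and 0 to 2 for null day 14 against day 8; the cause was not tested. Directions turned only when a library was left out, and only for values that had not passed. The log2 fold changes then ran from −0.59 to 0.20 for Tnni1, −0.073 to 0.18 for Tpm1, −0.10 to 0.47 for Tmod1 and −0.46 to 1.25 for the paralog Acta1 at day 14, from −0.61 to 0.013 for Tmod1 and −0.0054 to 1.16 for Tnni3 at day 8, and from −1.13 to 2.62 for Actc1, −1.91 to 0.14 for Tnni3 and −1.19 to 0.46 for Nebl between days in null cultures. With the replicate number as a block, 3 genes passed at day 8 (Actc1, Tnnt2 and Nebl), 1 at day 14, 0 for the interaction, 2 in wild type and 0 in null cultures between days, the same counts as without it. Deviations of same-numbered libraries correlated at 0.14 between genotypes at day 8 and 0.28 at day 14, and at −0.42 between days in null cultures, so the numbers were not taken to pair libraries. Over all genes, 708 passed at day 8 and 637 at day 14 without the low-count filter, against 200 and 97 as reported, 200 passed at day 14 in DESeq2, and 120 at day 8 in a fit on those groups alone. Leaving out a library gave 28 (wild type day 8 replicate 1) to 324 (null day 8 replicate 2) genes at day 8 and 14 (wild type day 14 replicate 2) to 301 (null day 8 replicate 1) at day 14, so the shares of all genes given beside the counts rest on single libraries too. For the interaction 65 passed without the filter and 8 in DESeq2, against 0. Between days, 1851 passed in wild type and 555 in null cultures in fits on those groups alone and 1244 and 1892 without the filter, against 639 and 1217. With library totals in place of TMM, 3 of 42 group levels moved. Actc1 in wild type cultures at day 8 moved beyond its spread, from 372 ± 3.49 to 382 CPM. Tpm1 moved from 264 to 227 CPM in null and from 821 to 728 CPM in wild type ES cells. These are single libraries, with no replicate spread to set the move against. In CPM with no length scaling, a setting chosen after seeing the data, 17 of 24 family shares moved beyond their spread. At these depths a gene of a few CPM, such as Tnni3, rests on fewer than 50 counts per library.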
